A study of Mus musculus with 121 samples.

Results

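The regions described here are the H3K27ac peaks of asynchronous mouse erythroid cells after 4 h of auxin (23016 peaks) and without auxin (21962 peaks). Together they make up 44978 of the 406319 regions in the peak lists of a series of 121 samples. An untreated peak was called kept when at least 1 bp of it lay in an auxin peak and lost when none did, and an auxin peak that touched no untreated peak was called auxin-only. By that rule 3198 peaks were auxin-only, 20151 were kept and 1811 were lost.

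The cells were G1E-ER4, an erythroid progenitor line derived from mouse embryonic stem cells that lack functional GATA1, to which a hormone-activated form of GATA1 was added. The H3K27ac, LDB1, CTCF, RAD21, TT-seq, RNA-seq and Micro-C libraries below, untreated ones included, came from a YY1-AID subline, in which YY1 is fused to a degron, so that adding auxin sends the protein to the proteasome. So did the main auxin and untreated YY1 lists and those of a second YY1 antibody. A further pair of YY1 lists is titled CTCF-AID, with 4 h of auxin or none, although another label of those libraries reads YY1-AID. The YY1 lists by stage of division came from G1E-ER4 cells of an MD-mCherry subline, without the degron, given nocodazole (a microtubule drug that holds cells in mitosis) for 7 h. H3K27ac was precipitated with an Active Motif antibody (39133) in 2 libraries after 4 h of auxin and in 2 untreated libraries, and each condition is represented by a single merged peak list. Auxin in cells without the degron was not analysed here, so loss of YY1 and the drug itself cannot be told apart. The untreated and the auxin H3K27ac libraries stand in separate blocks of the sample numbering of the series. Whether they were prepared together is not known here, so a batch difference and auxin cannot be told apart for this mark. TT-seq, which sequences RNA labelled with 4-thiouridine in a short pulse, had 3 libraries per condition at the same 4 h. Steady-state RNA-seq at 4 h and 0 h of auxin had 3 libraries each. The labels do not say whether replicates were separate cultures, so the spread between them may be technical.

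Acetylation of lysine 27 on histone H3 marks active promoters and active enhancers. It is written mainly by the acetyltransferases p300 and CBP, removed by histone deacetylases, and bound by BET bromodomain proteins such as BRD2. YY1 is a zinc finger factor that binds many promoters and enhancers and can recruit both acetyltransferases and deacetylases. LDB1 is the scaffold through which GATA1 and TAL1 complexes bring erythroid enhancers to promoters, while CTCF and the cohesin subunit RAD21 mark the bases of chromatin loops.

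By overlap of at least 1 bp, most H3K27ac peaks present before auxin were still called after 4 h of it. Lost peaks were 8.25% of the untreated list (Wilson 95% interval 7.89% to 8.62%), and auxin-only peaks were 13.9% of the auxin list (13.5% to 14.3%). These shares depend on what counts as overlap. With reciprocal overlap of at least 50% the auxin-only share was 24.6% and the kept share 79%, and with each peak cut to its central 200 bp they were 36.1% and 67%. These intervals, like all those on shares of peaks below, cover counting error only, because there is 1 list per condition and no replicate check. Measured in sequence, the auxin list covered 45.9 Mb and the untreated list 42.9 Mb, of which 39.4 Mb was common to both. That was 85.8% of the auxin list's length and 91.7% of the untreated list's length. Auxin-only peaks held 2.47% of the auxin list's length and lost peaks 1.35% of the untreated list's length. The rest of the unshared length lay inside kept peaks. A list records only where a peak was called, so a change in the strength of acetylation within a kept peak was not analysed here. In a bulk sample, fewer cells with the mark and less of it per cell cannot be told apart.

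Lost and auxin-only peaks were short regions. Auxin-only peaks had a median width of 252 bp, kept peaks had 1570 bp in untreated cells, and lost peaks had 246 bp. Under 500 bp lay 83.5% of auxin-only peaks, 13.4% of kept peaks and 90.6% of lost peaks. At the other end, 0 auxin-only, 1400 kept and 2 lost peaks spanned 5 kb or more. The shortest width differed between the lists, 171 bp in auxin and 182 bp in untreated cells, and peaks gathered at that limit. It was the width of 10.1% of auxin-only peaks and 7.18% of lost peaks, against 0.283% of the kept peaks of the auxin list and 0.293% of those of the untreated list. The part of the different lower limits in the count of auxin-only peaks was not tested.

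**Figure D1:**
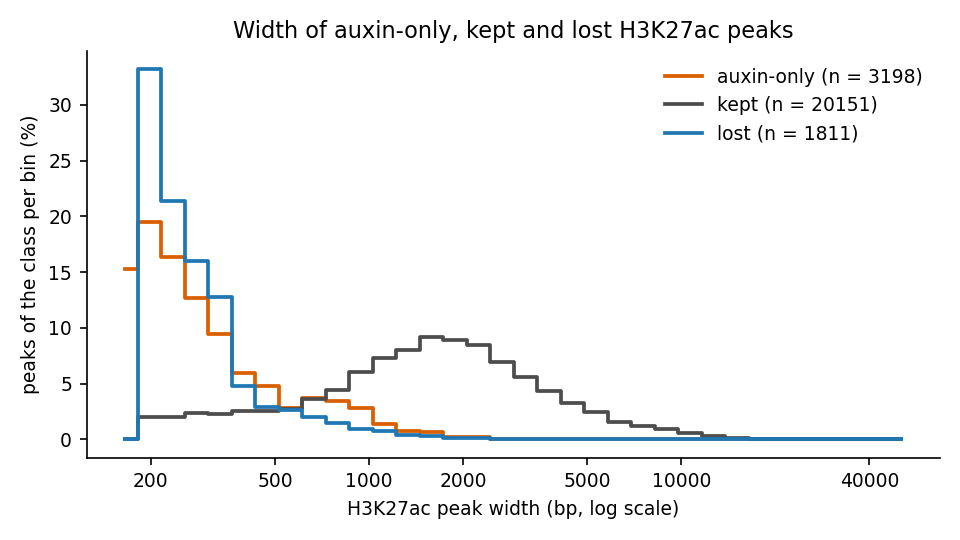
Width distribution of auxin-only, kept and lost H3K27ac peaks. The x axis is peak width in bp on a log scale, and the y axis is the percentage of each class per bin. Kept peaks are drawn with their untreated width; the medians are 252, 1570 and 246 bp.

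Width separated the peaks that persisted from those that did not. With the untreated widths cut into 5 classes of equal number, 57.6% of the auxin peaks under 508 bp were auxin-only, and 62.5% of the untreated peaks of that size were kept. Between 508 and 1136 bp, 9.52% of auxin peaks were auxin-only and 96.9% of untreated peaks were kept. From 1768 to 2802 bp the shares were 0.326% and 99.9%. Above 2802 bp none of 4625 auxin peaks was auxin-only (Wilson 95% upper limit 0.083%), and 4 of 4395 untreated peaks were lost.

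At the edge of the 1 bp rule, the smallest overlap of a kept peak was 5 bp, 46 kept peaks overlapped by under 50 bp, and 775 overlapped by under 50% of their length. Conversely, the lost peak nearest to an auxin peak was 1 bp away from it, and 263 lost peaks lay within 500 bp of one. Most kept peaks were covered almost entirely, since 14203 of them (70.5%) had over 90% of their length in auxin peaks.

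Most peaks also persisted as single regions. A total of 19002 pairs matched 1 to 1, 483 auxin peaks spanned several untreated peaks (991 in all), and 171 untreated peaks were split in auxin. No matched pair had identical coordinates. The matched auxin peak was wider in 10954 pairs (57.6%, interval 56.9% to 58.3%), narrower in 8008 and equal in 40. The median difference, auxin minus untreated, was 48 bp (95% interval of the median 43 to 53 bp, quartiles -119 and 272 bp), or 0.04 on the log2 scale. A change beyond 2-fold was rare, with 1132 pairs wider and 398 narrower by that factor.

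The widening was not the same at all kinds of matched peaks. YY1 and LDB1 were read within the untreated extent of each pair. Among pairs with no YY1 peak in either YY1 list, the median difference was 77 bp (interval 69 to 87 bp, 5049 pairs). Pairs whose YY1 peak was no longer called after auxin had 46 bp (39 to 52 bp, 11491 pairs). Pairs that still held a called YY1 peak had -2 bp (-16 to 11 bp, 2461 pairs). Between 1000 and 5000 bp the order was also there at matched size. For pairs of 1000 to 2000 bp the medians were 103 bp without YY1, 31 bp where the YY1 peak was gone and -27 bp where it was still called. For pairs of 2000 to 5000 bp they were 182, 57.5 and -6 bp in the same order. Pairs of at least 5000 bp widened with and without a remaining YY1 call, by 114 bp and 131 bp, and those medians lay within each other's intervals. A wider untreated peak has more room for YY1, so YY1 was also read in a fixed 2 kb window around the centre of the stretch that both peaks share. The medians were then 72 bp without YY1 (65 to 81 bp), 50 bp where it was gone (44 to 55 bp) and -14 bp where it was still called (-29 to 1 bp). For pairs of 1000 to 2000 bp they were 98, 34 and -27 bp in that order. For pairs of 2000 to 5000 bp they were 89 bp (54 to 123 bp), 60 bp (49 to 69 bp) and -9 bp. There the intervals without YY1 and with YY1 gone overlapped. Under 500 bp the medians were 15 bp without YY1 and 18.5 bp where it was gone. At 5000 bp or more they were 113, 136 and 132 bp.

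**Figure D2:**
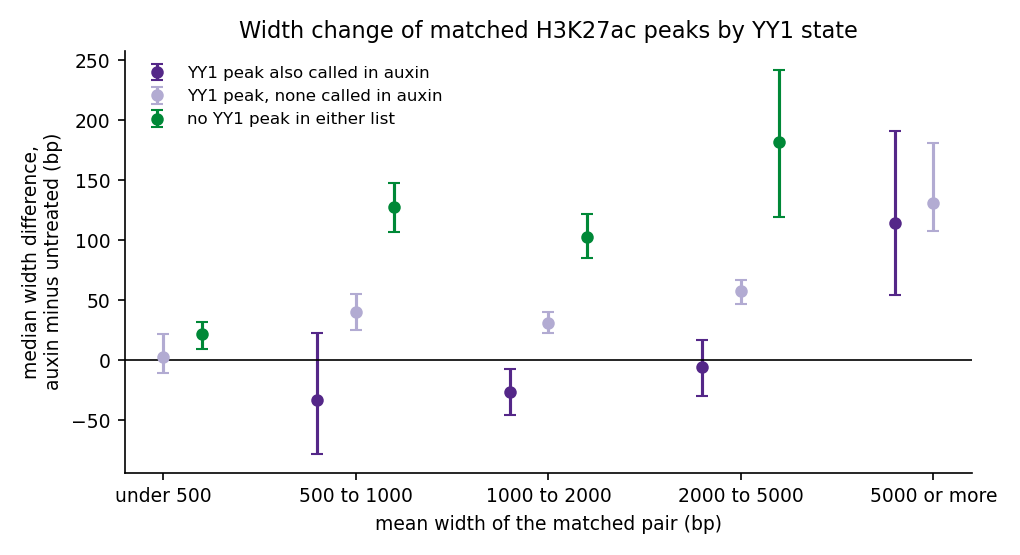
Median width difference (auxin minus untreated, bp, y axis) of 1 to 1 matched H3K27ac peaks by mean width of the pair (x axis), for pairs with a YY1 peak also called in auxin, with a YY1 peak called only without auxin, and with none. Error bars are 95% intervals of the median; groups under 20 pairs are not drawn. Between 500 and 5000 bp pairs without YY1 lie highest and pairs with a remaining YY1 peak lie lowest.

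LDB1 divided the matched peaks as well. Pairs with an LDB1 peak in untreated cells differed by a median of 89 bp (interval 81 to 96 bp, 8918 pairs), and pairs without one by 16 bp (12 to 21 bp, 10084 pairs). At asynchronous loop anchors the median was 32 bp (24 to 40 bp), against 55 bp (49 to 61 bp) elsewhere. In the fixed window the LDB1 medians were 92 bp with and 17 bp without it. These groupings by YY1, LDB1 and anchors, and the fixed window, were chosen after the widths had been seen.

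Most H3K27ac peaks whose YY1 call was gone after auxin were kept by the 1 bp rule. That rule reads the whole peak, so acetylation at the YY1 site itself was not analysed here. In auxin, 92.4% of the 41163 untreated YY1 peaks had no overlapping YY1 call. Of the 12450 untreated H3K27ac peaks that held a YY1 peak before auxin and none after it, 12176 were kept (97.8%, interval 97.5% to 98.0%). Of the 2603 with a YY1 call in both conditions, 2593 were kept (99.6%, interval 99.3% to 99.8%). Of the 6906 with no YY1 call in either condition, 5380 were kept (77.9%, interval 76.9% to 78.9%). The acetylated regions that disappeared therefore came mostly from those without YY1, 1526 of 1811, and these were also the narrowest, with a median of 524 bp against 1790 bp where YY1 was gone and 2562 bp where it remained.

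YY1 was unevenly spread over the classes before auxin. An untreated YY1 peak lay in 16.8% of auxin-only, 73.3% of kept and 15.7% of lost H3K27ac peaks. Kept minus lost, the difference was 57.6 percentage points (Newcombe 95% interval 55.8 to 59.3). Auxin-only minus kept, it was -56.5 points (-57.9 to -55.0). Kept minus lost came to 16.1 points with each peak cut to its central 200 bp and 27.3 points among peaks of at least 1000 bp, and auxin-only minus kept to -21.4 and -35 points. A wide peak has more room to hold a YY1 peak, and the differences shrank when widths were made alike. Weighted to the same 5 width classes, kept minus lost came to 15.1 points (30.7% and 15.7%) and auxin-only minus kept to -16.0 points (16.8% and 32.9%). In a fixed window of 2 kb around each midpoint the shares were 27.5% of auxin-only, 73.1% of kept and 27.4% of lost peaks.

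The difference by YY1 was also there step by step among narrow peaks. Of untreated H3K27ac peaks of 200 to 300 bp, 65.6% with a YY1 peak were kept (interval 60.4% to 70.5%) and 51.5% without one (49.0% to 54.0%). At 300 to 400 bp the shares were 81.8% (76.9% to 85.8%) and 69.0% (65.7% to 72.0%). By 700 to 800 bp they were 97.9% and 95.6%, with overlapping intervals.

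**Figure D3:**
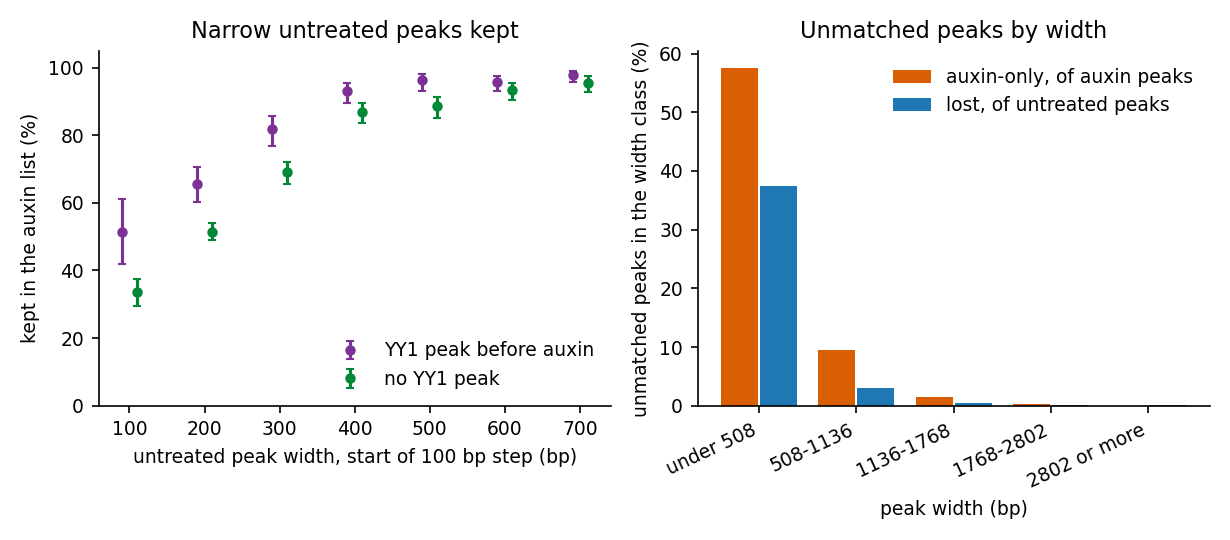
Left, share of untreated H3K27ac peaks kept (y axis, %) by width in 100 bp steps (x axis, bp) for peaks with and without a YY1 peak before auxin; bars are Wilson 95% intervals. Right, share of auxin peaks that were auxin-only and of untreated peaks that were lost (y axis, %) by width class (x axis, bp), which reaches 57.6% for auxin-only peaks under 508 bp.

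Read over whole peaks, other YY1 lists also marked kept peaks more often than auxin-only or lost ones. The second YY1 antibody, used on the same subline, whose untreated list holds 9164 peaks, marked 2.44% of auxin-only, 32.3% of kept and 3.04% of lost H3K27ac peaks. YY1 peaks of CTCF-AID cells given auxin marked 7.00% of auxin-only, 56.0% of kept and 6.57% of lost peaks, and those of untreated CTCF-AID cells 5.03%, 47.6% and 4.75%. These differences shrank at equal widths. In the 5 classes, kept minus lost came to 1.88 points for the second antibody (4.92% and 3.04%). It was 7.87 points for CTCF-AID cells given auxin and 5.6 points for untreated ones. With 25 bp bins under 500 bp the values were 0.895, 6.15 and 4.42 points. Auxin-only minus kept came to -3.33, -9.05 and -6.59 points in the 5 classes. Among the stage lists of nocodazole-treated G1E-ER4 cells, the share of YY1 peaks in acetylated chromatin was lower the later the stage at which they emerged. In untreated H3K27ac peaks lay 91.0% of the 681 YY1 peaks of prometaphase, 80.7% of the 5713 that emerged in ana/telophase and 54.6% of the 10643 that emerged in early G1. The share was 51.9% of the 2403 that emerged in mid-G1 and 37.4% of the 243 that emerged in late G1. In auxin H3K27ac peaks the shares were 91.3%, 80.6%, 55.2%, 52.9% and 38.3%. Among the 1811 lost H3K27ac peaks 0 overlapped a prometaphase YY1 peak (Wilson upper limit 0.212%). Kept peaks weighted to the widths of lost ones had a share of 0.123% in the 5 classes and 0.0937% with 25 bp bins. Both shares lay under that limit, so this count did not set lost peaks apart from kept peaks of the same widths.

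LDB1 peaks were also commoner in kept acetylated regions. An untreated LDB1 peak lay in 21.3% of auxin-only, 47.4% of kept and 17.6% of lost H3K27ac peaks, a kept minus lost difference of 29.9 points (interval 27.9 to 31.7). With equal widths in the 5 classes it was 15.8 points, with reciprocal overlap of at least 50% 15.7 points, among peaks of at least 1000 bp 10.4 points, and with each peak cut to its central 200 bp 2.49 points. Narrow peaks with both factors had the highest kept share. Of untreated H3K27ac peaks under 500 bp, 82.3% were kept with both factors, 72.8% with YY1 alone, 73.3% with LDB1 alone and 53.4% with neither. Their median widths were 332, 310, 301 and 259 bp, so width moved with content here too.

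LDB1 calls were steadiest inside kept acetylated regions. Of all auxin LDB1 peaks 12.5% had no untreated counterpart, and of all untreated LDB1 peaks 12.9% had no auxin counterpart. Inside auxin-only H3K27ac peaks, close to that background, 112 of 731 auxin LDB1 peaks were auxin-only (15.3%, interval 12.9% to 18.1%), against 7.37% (6.91% to 7.86%) inside kept peaks. Inside lost H3K27ac peaks 56 of 324 untreated LDB1 peaks were lost (17.3%, interval 13.6% to 21.8%), against 8.13% (7.65% to 8.64%) inside kept peaks. LDB1 peaks outside acetylated chromatin turned over at a higher rate than any of these, with 23.2% auxin-only and 23.9% lost. Most LDB1 peaks inside auxin-only and lost H3K27ac regions were thus called in both conditions.

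CTCF and RAD21 peaks were commoner at kept H3K27ac peaks too. In the 2 kb window an untreated CTCF peak was found at 20.5% of auxin-only, 29.1% of kept and 21.6% of lost H3K27ac peaks, and an untreated RAD21 peak at 17.9%, 37.7% and 18.3%. The auxin list of RAD21 was the longer one, and 26.4% of its 50028 peaks had no untreated counterpart. That share was 33.7% (interval 29.3% to 38.3%) inside auxin-only, 33.6% (32.8% to 34.4%) inside kept and 28.6% (23.0% to 34.9%) inside lost H3K27ac peaks. The intervals of the 3 classes overlapped, so new RAD21 calls did not mark auxin-only acetylated regions apart from kept ones at this number of peaks. Of CTCF auxin peaks 15% had no untreated counterpart, and inside auxin-only, kept and lost H3K27ac peaks 17.1%, 18.9% and 9.04%.

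**Figure D4:**
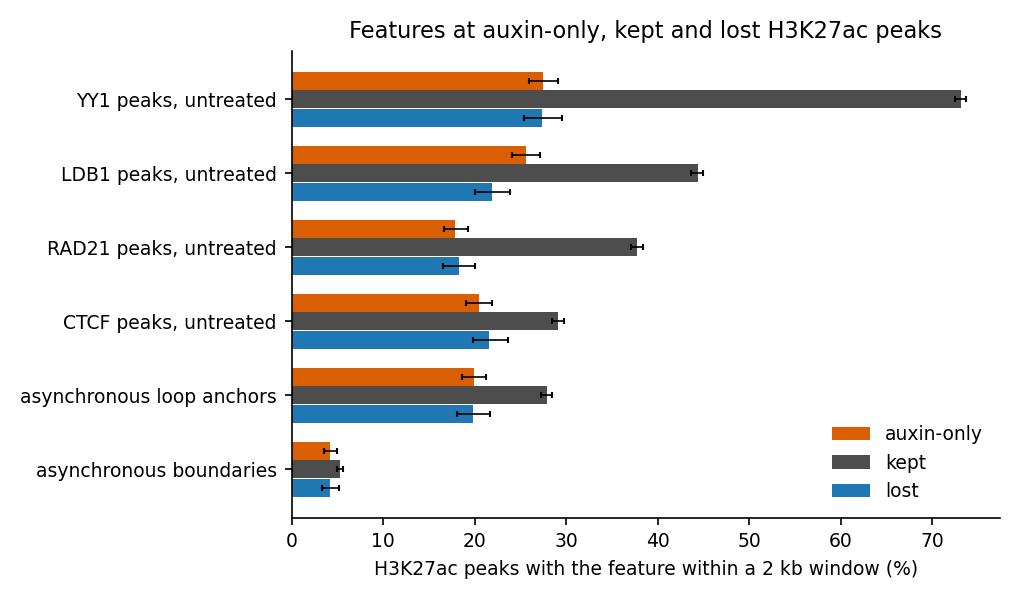
Share of auxin-only, kept and lost H3K27ac peaks (x axis, %) with each feature (y axis) in a window of 2 kb around the midpoint; bars are Wilson 95% intervals. For YY1 the shares are 27.5%, 73.1% and 27.4%, and for boundaries 4.22%, 5.28% and 4.20%.

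H3K27ac calls at loop anchors were almost fully retained. The asynchronous Micro-C loops are a single merged list of 12738 loops with 20294 anchors of 5 to 10 kb. The list is not split by treatment, and the series has 5 auxin and 5 untreated libraries of this kind. In which condition a loop was present was therefore not analysed here. An H3K27ac peak lay at 6572 anchors in auxin and 6350 in untreated cells. Anchors that gained their only H3K27ac call numbered 407 (6.19% of those acetylated in auxin), and 185 lost theirs (2.91% of those acetylated in untreated cells). Both anchors were acetylated at 2698 loops in auxin (21.2%) and 2601 in untreated cells (20.4%), and 2510 loops were in both counts. The 14155 mid-G1 loops, also a merged list not split by treatment, gave nearly the same picture. There 3004 and 2896 loops were acetylated at both anchors and 2770 were in both counts.

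Loops with YY1 at both anchors kept paired acetylation at a higher rate than other loops. Of 2142 asynchronous loops with untreated YY1 and H3K27ac at both anchors, 2093 had H3K27ac at both in auxin (97.7%, interval 97.0% to 98.3%). Of 459 others with H3K27ac at both, 417 did (90.8%, interval 87.9% to 93.2%). In mid-G1 the shares were 97.7% and 86.9% (83.8% to 89.5%). Loops share anchors, so they are not independent of one another, and peak width was not held constant here.

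An asynchronous loop anchor overlapped 17.1% of auxin-only, 28.2% of kept and 17.0% of lost H3K27ac peaks. The kept minus lost difference of 11.2 points (interval 9.28 to 13.0) came down to 2.85 points with equal widths in the 5 classes and 1.5 points with 25 bp bins under 500 bp, and it was 0.845 points with each peak cut to its central 200 bp. At the same widths the differences were 15.1 points for YY1 and 15.8 points for LDB1 in the 5 classes. The other anchor of the loop carried H3K27ac in 48% of cases for auxin-only peaks (interval 44.6% to 51.5%), 64.7% for kept peaks (63.7% to 65.8%) and 48.4% for lost peaks (43.9% to 52.9%). These shares count 816, 7875 and 467 anchor ends. Loops share anchors, so the ends are not independent, and peak width was not held constant for them. Asynchronous domain boundaries, also a merged list not split by treatment, overlapped 3.75% of auxin-only, 5.41% of kept and 3.48% of lost peaks. With equal widths in the 5 classes these boundary shares differed by 0.271 points for kept minus lost and -0.0167 points for auxin-only minus kept. With 25 bp bins under 500 bp both turned sign, to -0.254 and 0.387 points.

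Peaks that came and went lay close to lasting ones. The median gap to the nearest kept peak was 6.02 kb from auxin-only peaks and 6.07 kb from lost peaks, against 8.73 kb between neighbouring kept peaks of the auxin list and 8.45 kb between those of the untreated list. Within 10 kb of a kept peak lay 63.0% of auxin-only and 62.8% of lost peaks, and 53.6% and 54.5% of kept peaks in the auxin and untreated lists had another that near.

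Chromosome 12 had the highest share of both kinds among placed chromosomes. Auxin-only peaks made up between 10.6% (chromosome 10) and 18.2% (chromosome 12, interval 15.7% to 20.8%) of the auxin peaks on a placed chromosome. Lost peaks made up between 5.39% (chromosome X) and 11.1% (chromosome 12, interval 9.11% to 13.4%) of the untreated ones. On unplaced contigs 3 of 27 auxin peaks were auxin-only and 15 of 38 untreated peaks were lost.

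In windows of 1 Mb the changes were spread thinly, with a median of 2 auxin-only peaks in the 1125 windows that had any and 1.5 lost peaks in the 888 that had any. The window with the largest number of auxin-only peaks was chr1:153000001-154000000 (mm9, as are all positions here), with 18 of 48 auxin peaks auxin-only and 3 of 34 untreated peaks lost. Next came chr12:78000001-79000000, with 15 of 41 auxin-only and 8 of 34 lost, and chr11:115000001-116000000, with 13 of 56 and 3 of 48, which is the first by position of 2 windows with 13. The windows with the largest numbers of lost peaks were chr1:52000001-53000000, with 3 of 19 auxin-only and 9 of 26 lost, and chr3:60000001-61000000, with 11 of 35 and 9 of 36. In chr11:4000001-5000000, 7 of 45 were auxin-only and 8 of 46 lost. It is the first by position of 3 windows with 8 lost peaks, of which chr12:78000001-79000000 is another. All 6 of these windows held both kinds. So did most windows with a lost peak: 721 windows held both, of 1125 with any auxin-only and 888 with any lost peak.

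The widest lost region was an exception to the rule of small peaks. At chr4:46569781-46582558 an untreated H3K27ac peak of 12778 bp, with 5 YY1, 4 LDB1 and 2 RAD21 peaks inside, had no auxin H3K27ac call, and the nearest auxin call was 5162 bp away. In auxin its interval held 0 YY1, 2 LDB1 and 3 RAD21 peaks. A second lost peak of 2178 bp, chr4:46566174-46568351, lay 1429 bp from it, so both together spanned 16385 bp. The second widest, chr7:25168341-25175209 with 6869 bp, held 0 YY1, 2 LDB1 and 2 RAD21 peaks in auxin and 2, 2 and 1 in untreated cells. The third, chr4:116796001-116799979 with 3979 bp, held 0 YY1 peaks in auxin and 2 in untreated cells, and 1 LDB1 peak in both. The others, chr16:75875954-75878910 (2957 bp) and chr15:103093524-103095758 (2235 bp), held no YY1 or LDB1 peak in either condition. No genome annotation of this build was used, so these regions are not tied to genes.

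The widest auxin-only peaks were smaller. The first, chr2:165699581-165702187 with 2607 bp, held 1 CTCF peak in both conditions, 1 RAD21 peak in auxin and none in untreated cells, and no YY1 or LDB1 peak. It lay 1401 bp from chr2:165703589-165716433, an auxin peak that itself was 3177 bp wider than its untreated match, so acetylation calls extended over neighbouring stretches there. The second, chr7:16911272-16913700 with 2429 bp, was the most isolated of the 5, with 11445 bp to the nearest untreated peak. The third, chr5:97462136-97464381 with 2246 bp, lay 5005 bp from one of the widest kept peaks. The remaining 2 were chr14:8712626-8714805 (2180 bp, over 2 untreated YY1 peaks and 1 LDB1 peak called in both conditions) and chr12:111926332-111928501 (2170 bp). The last of these was 4 bp from an untreated peak, while the nearest kept peak was 3188 bp away. That untreated neighbour was thus a lost peak, so 1 site was counted in both classes. With a slightly larger extent both calls would have counted as kept.

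The largest gains in width among matched pairs were 3827 bp at chr1:88243140-88247167, where the untreated call was 201 bp wide, and 3429 bp at chr5:144457008-144461657. The gain at chr2:165703589-165716433 was 3177 bp, and at chr1:21319170-21326542 it was 3166 bp. At the other end the differences were -3659 bp at chr13:46782915-46790039, -2969 bp at chr1:53829513-53835292, -2480 bp at chr2:72309476-72318026 and -2259 bp at chr14:47438014-47442485, given here by the untreated coordinates. All 4 of the narrowed peaks, and 3 of the 4 widened ones in their untreated extent, held YY1 before auxin. So did 73.3% of all kept peaks and 4274 of the 4395 untreated peaks above 2802 bp. All 4 narrowed peaks were of that size, and the widened peak without YY1 was the 201 bp call. The widened and narrowed peaks that held no auxin YY1 peak numbered 3 and 4. Of all kept peaks only 12.9% held an auxin YY1 peak, so these counts do not set the named peaks apart.

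The broadest kept regions persisted with most of their LDB1 and little of their YY1. At chr3:137602600-137645279, an untreated peak of 42680 bp, there were 2 YY1 and 10 LDB1 peaks in auxin and 13 YY1 and 11 LDB1 peaks in untreated cells. At chr6:17683567-17723729 (40163 bp) there were 1 YY1 and 6 LDB1 peaks in auxin and 14 and 9 in untreated cells. At chr5:97421797-97457130 (35334 bp) there were 1 YY1 and 2 LDB1 peaks in auxin and 13 and 1 in untreated cells. RAD21 calls inside these regions numbered 14, 9 and 7 in auxin and 11, 5 and 6 in untreated cells.

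Genes that write, remove and read acetylation were followed at the same 4 h. The cells carried erythroid transcripts, with Gata1 at 2150 to 2450 CPM in auxin and 2510 to 2920 CPM in untreated RNA-seq, while the pluripotency genes Pou5f1 and Sox2 were at 0. TT-seq libraries held between 30229935 and 53453617 counts, and the RNA-seq libraries at 4 h and 0 h between 25914262 and 26210181. By edgeR's quasi-likelihood test with Benjamini-Hochberg adjustment, 2.11% of 11218 genes were higher and 7.09% lower in TT-seq (237 and 795 genes, or 2541 and 2833 with the replicate number as a block). In RNA-seq 3.14% of 15157 genes were higher and 4.14% lower. Of 40 acetylation genes, 39 could be tested in each assay. In TT-seq 0 rose and 7 fell, with a list median of -0.05 on the log2 scale against 0.02 over all genes. By edgeR at an unadjusted p under 0.05, 2 of the list were higher and 9 lower, against 1104 and 1567 of all 11218 genes. By DESeq2 0 of the list passed as higher and 8 as lower, against 322 and 983 of all genes. In RNA-seq 1 rose and 2 fell, with a median of -0.03 against 0.01.

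Of the 8 acetyltransferase genes, 2 were lower in TT-seq by DESeq2, against 983 of all genes. By edgeR with the replicate block 5 were lower and 1 higher, against 2833 and 2541 of all 11218 genes. By edgeR without the block the one that passed was Crebbp, which encodes CBP. Its TT-seq values were 147, 151 and 159 CPM in auxin and 234, 249 and 260 CPM in untreated cells. The groups did not overlap, and it fell by 0.71 ± 0.08 (log2, SE, adjusted p = 0.0012 by edgeR). In steady-state RNA the auxin values were 31.8, 43.4 and 43.8 CPM and the untreated ones 47.3, 47.7 and 49.0 CPM, a difference of -0.27 ± 0.14 that did not pass (adjusted p = 0.29 by edgeR). Ep300, which encodes p300, had 160, 175 and 189 CPM in auxin and 186, 194 and 216 CPM in untreated TT-seq, a log2 difference of -0.19 ± 0.09 that did not pass (adjusted p = 0.253 by edgeR). Its RNA-seq difference was -0.08 ± 0.10 (adjusted p = 0.711 by edgeR).

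On the removing side, 5 of 18 tested deacetylase and partner genes fell in TT-seq. None rose by edgeR without the block or by DESeq2, and 0 were higher at an unadjusted p under 0.05 by edgeR. With the replicate block 3 were higher and 8 lower. Over all 11218 genes, 1104 were higher at an unadjusted p under 0.05, and with the block 2541 were higher and 2833 lower. Hdac1, a class I deacetylase, had 31.2, 33.4 and 34.4 CPM in auxin and 45.2, 45.6 and 49.0 CPM in untreated cells (log2 -0.50 ± 0.09, adjusted p = 0.00942 by edgeR). Sirt1, an NAD-dependent deacetylase, changed by -0.55 ± 0.13 and Hdac5, a class IIa deacetylase, by -0.46 ± 0.11. The corepressor scaffolds Ncor1 and Sin3b changed by -0.46 ± 0.09 and -0.43 ± 0.08. None of these 5 passed in RNA-seq, where their log2 differences ran between -0.33 and -0.07. There the gene of this group that fell was Chd4, the remodelling ATPase of the NuRD complex, with 736, 763 and 797 CPM in auxin and 893, 915 and 1010 CPM in untreated cells (log2 -0.29 ± 0.06, adjusted p = 0.0142 by edgeR).

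By edgeR without the block, Brd2 was the gene of the list past the threshold in both assays. With the block Hdac1, Chd4 and Acss2 also passed in both, and by DESeq2 Sirt1 did. This BET reader of acetylated histones had 89.6, 99.7 and 101 CPM in auxin and 127, 142 and 149 CPM in untreated TT-seq (log2 -0.53 ± 0.10, adjusted p = 0.0141 by edgeR). In RNA-seq it had 210, 211 and 214 CPM in auxin and 288, 305 and 323 CPM in untreated cells (log2 -0.52 ± 0.05, adjusted p = 8.65e-05 by edgeR). Acss2, which makes acetyl-CoA from acetate, was the gene that rose in RNA-seq (log2 0.31 ± 0.06, adjusted p = 0.0122 by edgeR). The transcript of Yy1 itself did not pass, at 0.16 ± 0.08 in TT-seq and 0.11 ± 0.09 in RNA-seq. The degron acts on the protein, so this transcript does not check its depletion.

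**Figure D5:**
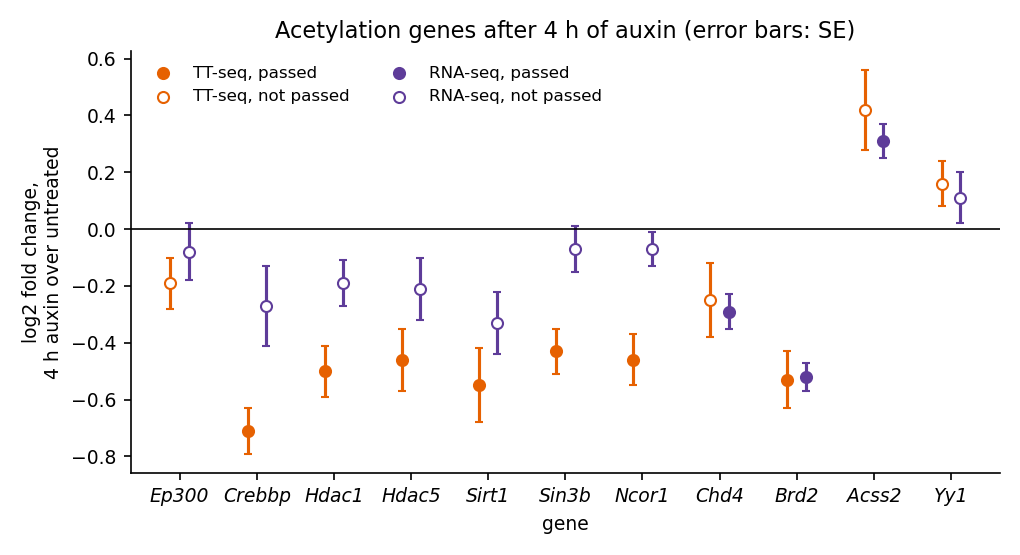
log2 fold change (y axis, 4 h auxin over untreated) of the acetylation genes that passed in either assay, with Ep300 and Yy1 (x axis), in TT-seq and RNA-seq. Bars are SE, filled points passed the adjusted threshold of 0.05 in edgeR. Crebbp is lowest in TT-seq at -0.71, and Brd2 is the gene filled in both assays in the fit without the block that is drawn here.

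The TT-seq calls rested on how the libraries were modelled. Same-numbered TT-seq libraries deviated together. With the replicate number as a block 7 of the 39 tested genes of the list were higher and 14 lower. Ep300 was among the lower (adjusted p = 3.08e-06 by edgeR). Over all 11218 genes, 2541 were higher and 2833 lower with the block, so passing was common at that setting. Scaled to the Drosophila spike-in without the block, none of the 7 TT-seq calls of the list passed, although their log2 differences were as large, between -0.78 for Crebbp and -0.51 for Ncor1. With spike-in sizes and the block all 7 passed. Crebbp and Hdac1 passed with any single library left out. Brd2 in TT-seq did not pass without untreated replicate 3 or auxin replicate 3 (adjusted p up to 0.0751 by edgeR), and Sin3b without those or untreated replicate 2 (up to 0.0823). Ncor1 did not pass without untreated replicates 2 or 3 or auxin replicates 1 or 3 (up to 0.0897), Sirt1 when any 1 of the libraries other than untreated replicate 2 was left out (up to 0.135), and Hdac5 when any 1 of the 6 was left out (up to 0.157). In RNA-seq, Acss2 did not pass without 0 h replicates 1 or 2 or 4 h replicate 3 (up to 0.0678), while Chd4 and Brd2 passed throughout.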

How the data were processed

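H3K27ac ChIP-seq peaks are positions that the authors deposited as 1 merged list per condition (2 libraries each), without score or height. Bowtie2, MACS2 2.2.7 and deepTools 3.5.1 with the build mm9 are named in the submitters' processing notes. No source used here gives the peak threshold or how replicates were combined. Within a list no 2 peaks lie closer than 1001 bp, so nearby calls may have been joined. Overlaps (minimum 1 bp), Wilson, Newcombe and median intervals were computed with NumPy 2.4.6 and SciPy 1.17.1, and the overlap code was tested on simulated intervals against an exhaustive search. Coordinates are 1-based.

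TT-seq and RNA-seq are read counts per gene, which the authors deposited as whole numbers. Trim Galore 0.6.10, STAR and SAMtools (mm9 and dm6) are named for TT-seq and Salmon 0.13.1 for RNA-seq, per the submitters' processing notes, so RNA-seq counts may be rounded estimates. Lines naming no gene were left out (no feature 17.2% to 22.2%, ambiguous 0.391% to 0.529% of a TT-seq library). edgeR 4.0.16 (TMM, filterByExpr, quasi-likelihood F-test, Benjamini-Hochberg, threshold 0.05) was fitted on all genes of each table, with all 12 libraries of the RNA time series in 1 fit, and tested on simulated counts. CPM values are TMM-scaled, and not per length. DESeq2 1.42.0 was an alternative. Same-numbered TT-seq libraries deviated together (r 0.55, 0.66 and 0.40, other pairs at most -0.09), so the numbers pair them, by the data and not by the labels.

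Regions named are the 5 widest lost and 5 widest auxin-only peaks, the 3 widest kept, the 4 largest gains and falls in matched width, and the 3 windows of 1 Mb with the largest numbers of lost and of auxin-only peaks, outside chromosome 18. Genes named are members of the acetylation list past the threshold, with Yy1, Ep300 and Crebbp. The second lost peak on chromosome 4 was named after its values were seen. Some members of the list are not reported here. Peak classes, lists and tests were chosen with earlier results of these data known. Untreated parental lines and domain lists were not used here.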

Additional observations from a re-analysis of the deposited data

How the results depend on the processing

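Restriction to chromosomes 1 to 19 left every peak result it was run on within its interval, and joining peaks within 1 kb changed neither list. The kept share was 88.2% when 50% of a peak had to be overlapped, 79% with reciprocal 50%, 67% with 200 bp around midpoints, 93% with a gap of 500 bp allowed and 95.4% among peaks of at least 1000 bp. The auxin-only share was 20.7%, 24.6%, 36.1%, 12.8% and 9.7% in that order. The median width difference was 35 bp for reciprocal pairs and 62 bp for all kept peaks against the summed width of their partners. In the order 50%, reciprocal 50%, midpoints, at least 1000 bp and equal widths in 5 classes, the YY1 share of kept minus lost was 53.4, 46.8, 16.1, 27.3 and 15.1 points, and of auxin-only minus kept -50.2, -49.3, -21.4, -35 and -16 points. For LDB1 it was 24.6, 15.7, 2.49, 10.4 and 15.8 points. For anchors it was 0.845 points with midpoints, 14.8 with at least 1000 bp and 2.85 with equal widths in 5 classes. The second YY1 antibody gave 29.3 points for kept minus lost, and 1.88 points with equal widths in 5 classes. With 25 bp bins and with the 2 kb window, both chosen after seeing the data, YY1 kept minus lost was 11.4 and 45.7, auxin-only minus kept -14 and -45.6, LDB1 12.9 and 22.4, and anchors 1.5 and 8.08 points. None of these peak differences changed sign. Exceptions among the other shares weighted by width were domain boundaries (kept minus lost 0.271 points in 5 classes and -0.254 in 25 bp bins, auxin-only minus kept -0.0167 and 0.387) and ana/telophase YY1 (kept minus lost 0.41 and -0.0197 points). Width differences by YY1 and LDB1, taken over pairs of all sizes, stayed within their intervals when content was read in a fixed 2 kb window. For pairs of 2000 to 5000 bp without YY1 the median left its interval, at 89 bp against 182 bp (119 to 242 bp). No paired analysis was possible for peaks because each condition has 1 merged list.

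Over all genes, TT-seq had 237 higher and 795 lower. The replicate block gave 2541 and 2833, spike-in library sizes 1 and 0 (18 and 55 at an unadjusted p under 0.05), and spike-in sizes with the replicate block 1128 and 2411, and the cause of these shifts was not tested. Leaving out 1 library gave 54 to 172 higher and 375 to 701 lower in TT-seq, with the lower count moving over 1.5 times without untreated replicate 3 (375) or auxin replicate 3 (379), and the higher count when any library other than auxin replicate 1 was left out. RNA-seq had 476 higher and 627 lower, 1029 lower with DESeq2, and 206 to 248 higher and 397 to 483 lower with 1 library left out. There the higher count moved over 1.5 times whichever library was left out, and the lower count did so without 0 h replicate 2 (397) or 4 h replicate 3 (414). Its numbers share only a number (r 0.10, 0.05 and 0.10), and the block gave 661 and 832. For named genes, 120 alternatives left the call as it was, 30 ended it and 3 made it, with no change of direction among them. Peak lists hold no depth, so limits of detection cannot be set for single peaks.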
